A study of Macaca mulatta with 8 samples.

Results

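The genes described here are 10 markers of astroglia and of radial glia, the glial-type stem cells of the developing brain: GFAP, S100B, AQP4, FABP7, SLC1A3, CD44, BCAN, TNC, VIM and NES. They were taken by name from the table of mRNA levels, where each of the 10 had 1 row among 12460 gene symbols. The levels came from mRNA-Seq of rhesus monkey embryonic stem cells of the wild-type line IVF3.2 during neural differentiation, with 1 library for each of 4 stages. ESC colonies were kept on mitotically inactivated mouse embryonic fibroblasts. R-NSCP1 was the first passage of rosette neural stem cells, in N2 medium with ascorbic acid, 200 ng/ml SHH, 100 ng/ml FGF8 and 20 ng/ml BDNF, and only hand-picked rosettes were collected. R-NSCP6 was the sixth passage, propagated with ascorbic acid, SHH, Dll4 and Jagged-1 (500 ng/ml each) and 20 ng/ml BDNF, and since no rosettes were left, all cells of the dish were collected. NPC were progenitors kept for more than 100 days with ascorbic acid, 20 ng/ml FGF2, 20 ng/ml EGF and 20 ng/ml BDNF. Medium, time in culture and way of collection went with the stage, so their parts in a difference between stages cannot be told apart. Each library was a pool of many repeats of the differentiation. There were therefore no replicates, no test was made, and each difference below is one between 2 libraries. Several of these genes, S100B among them, served the study as markers of its stages, so a high level of such a gene in NPC is not independent evidence of what NPC are.

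Radial glia are elongated stem cells that follow the neuroepithelium of the neural tube, give rise to neurons and later to glia, and carry intermediate filaments of vimentin and nestin together with a brain lipid-binding protein and a glutamate transporter. Astrocytes descend from them. They add GFAP to the filament network, place the water channel AQP4 in the endfeet that touch blood vessels, and keep taking up glutamate from synapses. CD44, brevican and tenascin-C belong to the cell surface and matrix of astroglial cells, where hyaluronan and chondroitin sulfate proteoglycans are the main components.

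Levels are given in FPKM, the count of fragments scaled for the length of the transcript and for all mapped fragments of the library, so that levels of different genes can be set side by side. A gene was called prevalent in a stage when its level there was at least 3 FPKM and at least 2 times that of the second highest stage. Between 2 stages, a gene was called higher or lower in the later stage when the levels differed at least 2-fold and the larger was at least 3 FPKM. The number of fragments behind each FPKM was not known, so a level far under 1 FPKM has no known precision and a ratio to it is only a rough size. An exact 0 can be a failed estimate, since ATP5O, a subunit of the mitochondrial ATP synthase that all these cells use, had 305 FPKM in ESC and is listed at 0 in the 3 later stages. The table held almost only genes that reached 3 FPKM somewhere, since 12611 of its 12613 rows did. GFAP, S100B, AQP4 and BCAN reached that level in NPC alone, so they are in the table through that library only.

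The stage labels stood against their defining markers as follows. POU5F1, the pluripotency factor, had 1176 FPKM at the ESC stage, 1.04 at R-NSCP1, 0.182 at R-NSCP6 and 0.0583 at NPC. PAX6, a transcription factor of neuroepithelium and radial glia, had 0.265 FPKM at the ESC stage, 67.8 at R-NSCP1, 62.3 at R-NSCP6 and 18.9 at NPC. SOX2, shared by pluripotent and neural stem cells, had 113 FPKM at the ESC stage, 125 at R-NSCP1, 159 at R-NSCP6 and 296 at NPC. The libraries summed to between 491243 and 999473 FPKM, a spread that a few very high rows in ESC and R-NSCP6 contributed to. How the results stand under other scalings is stated wherever a direction turned.

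Of the 10 genes, 9 were prevalent in NPC and NES in no stage, against 6.55% of all 12460 symbols that were prevalent in NPC. None was prevalent in ESC, R-NSCP1 or R-NSCP6, where 9.21%, 2.04% and 7.58% of all symbols were. At least 3 FPKM was reached by 4 of the 10 genes in ESC (SLC1A3, CD44, VIM and NES), by 4 in R-NSCP1 (FABP7, SLC1A3, VIM and NES), by 5 in R-NSCP6 (the same with TNC) and by 10 in NPC. The genes followed different courses on the way. FABP7, SLC1A3, VIM and NES were at 23.0 FPKM or more in R-NSCP1 already, while GFAP, S100B, AQP4, CD44, BCAN and TNC were at 1.10 FPKM or less there. As the sample is bulk RNA, fewer cells that express a gene and less of its RNA per cell cannot be told apart.

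**Figure D1:**
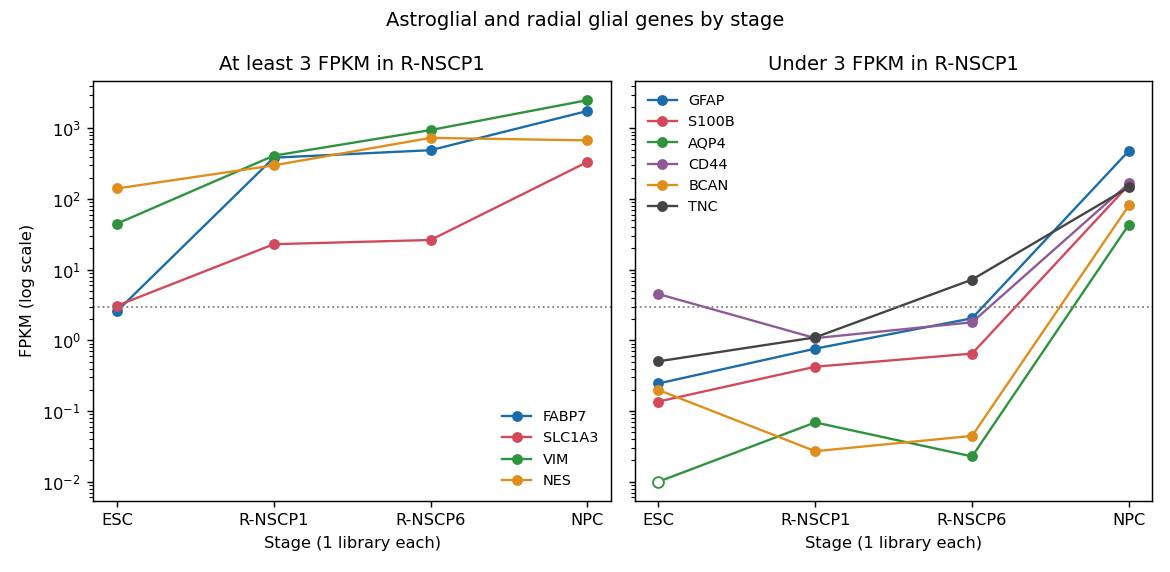
FPKM (log scale) of the 10 genes at the 4 stages from ESC to NPC, 1 library per stage and hence no error bars, with the 4 genes of at least 3 FPKM in R-NSCP1 on the left and the 6 under it on the right. The dotted line is at 3 FPKM, and the open circle is AQP4 in ESC, drawn at the bottom of the scale because its value was 1.48e-07. The right-hand genes lie at or under 7.25 FPKM until R-NSCP6 and between 43.7 and 483 FPKM in NPC.

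Among the intermediate filament genes, VIM encodes vimentin, the filament of neuroepithelial cells, radial glia and many cells of mesenchymal kind. VIM had 44.9 FPKM at the ESC stage, 412 at R-NSCP1, 948 at R-NSCP6 and 2515 at NPC. It was thus higher at each later stage, and in NPC only 11 of the 12460 symbols were above it, since it ranked 12. NES encodes nestin, which forms filaments together with vimentin in neural stem cells. NES had 141 FPKM at the ESC stage, 300.2 at R-NSCP1, 735 at R-NSCP6 and 677 at NPC. It was the highest of the 10 genes in ESC, and the only one that was not higher in NPC than in R-NSCP6 as deposited. Its log2 ratio of NPC to R-NSCP6 was -0.12, which turned to between 0.04 and 0.50 under the 4 other scalings, so that no order of the 2 stages can be given for NES. GFAP encodes the main filament of astrocytes, which primate radial glia also contain. GFAP had 0.246 FPKM at the ESC stage, 0.764 at R-NSCP1, 2.06 at R-NSCP6 and 483 at NPC. In NPC it ranked 123 of 12460, while it ranked 11028 in R-NSCP6, a level 235-fold lower than in NPC.

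Within each library, where scaling has no part, these filaments held very different shares of the summed FPKM of the 14 intermediate filament genes that had a row. GFAP made up 0.0344% of that sum at the ESC stage, 0.0699% at R-NSCP1, 0.102% at R-NSCP6 and 12.3% at NPC. VIM made up 6.28% at the ESC stage, 37.7% at R-NSCP1, 46.9% at R-NSCP6 and 63.9% at NPC. NES held 19.8% at the ESC stage, 27.5% at R-NSCP1, 36.4% at R-NSCP6 and 17.2% at NPC. In NPC these 3 genes were most of the filament RNA, and the VIM level was 3.72 times that of NES, against 1.29 times in R-NSCP6. The keratins of simple epithelia, KRT8 and KRT18, had the opposite course, with KRT8 at 23.3% at the ESC stage, 6.26% at R-NSCP1, 0.999% at R-NSCP6 and 0.0101% at NPC. Both genes have several rows, of which the one with the highest ESC level was taken. SYNM, whose product synemin joins filaments of vimentin and GFAP in astrocytes, was prevalent in NPC, with 2.32 FPKM at the ESC stage, 7.54 at R-NSCP1, 4.28 at R-NSCP6 and 46.8 at NPC. LMNA, which encodes the nuclear lamins A and C, was prevalent in NPC as well, with 100.9 FPKM, against 43.2 in R-NSCP6. Of the 11 filament genes other than GFAP, VIM and NES, 3 were prevalent in NPC, the third being NEFL, a neurofilament gene, with 20.1 FPKM in NPC and 1.80 in R-NSCP6.

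**Figure D2:**
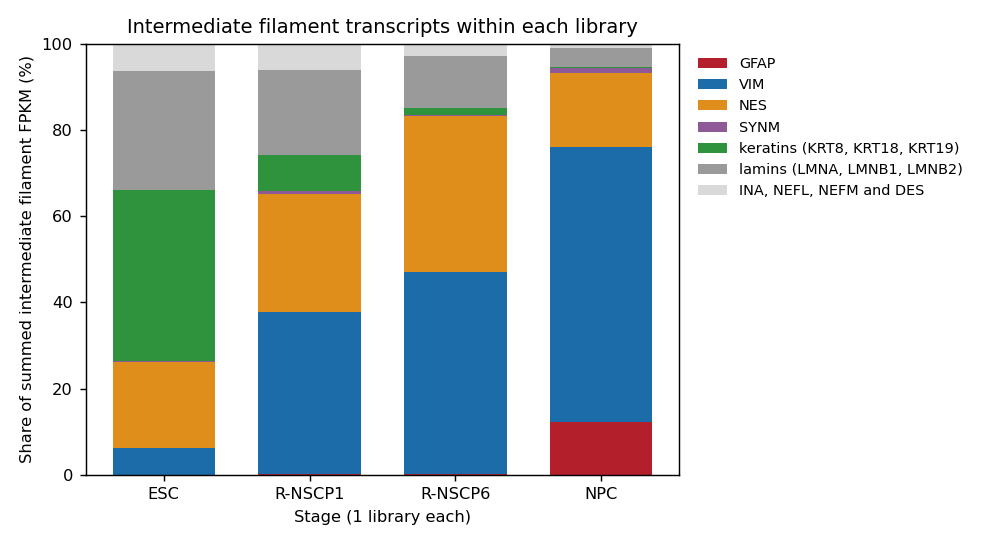
Share (%) of the summed FPKM of 14 intermediate filament genes in each stage, 1 library each, stacked by gene or group. VIM is the largest segment in R-NSCP1, R-NSCP6 and NPC, GFAP is visible in NPC alone (12.3%), and the keratins (KRT8, KRT18 and KRT19) are a trace in NPC.

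FABP7 and SLC1A3 are the classical functional markers of radial glia. FABP7 encodes the brain lipid-binding protein, a fatty acid carrier that Notch signalling is known to turn on in radial glia. FABP7 had 2.58 FPKM at the ESC stage, 385 at R-NSCP1, 492 at R-NSCP6 and 1767 at NPC. On the scale of log2(FPKM + 1), 75.5% of its difference between NPC and ESC lay between R-NSCP1 and ESC. In R-NSCP1 it already ranked 168 of 12460, and it ranked 18 in NPC. SLC1A3 encodes the glutamate and aspartate transporter GLAST, found in radial glia and astrocytes. SLC1A3 had 3.10 FPKM at the ESC stage, 23.0 at R-NSCP1, 26.4 at R-NSCP6 and 336 at NPC. R-NSCP1 therefore held 21.8% of the NPC level of FABP7 and 6.85% of that of SLC1A3. FABP7 was 16.8 times as high as SLC1A3 in R-NSCP1, 18.7 times in R-NSCP6 and 5.26 times in NPC, so the 2 radial glial markers did not move in step. Between R-NSCP6 and R-NSCP1 their log2 ratios were 0.35 for FABP7 and 0.19 for SLC1A3, and both turned negative, at -0.33 and -0.47, when libraries were scaled to 1 sum of FPKM.

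Their families did not share this pattern. FABP5, the other fatty acid-binding protein gene with a row, which encodes an epidermal and neural carrier, had 569 FPKM at the ESC stage, 136 at R-NSCP1, 130 at R-NSCP6 and 652 at NPC. FABP7 was 0.452% of the sum of both at the ESC stage, 74.0% at R-NSCP1, 79.1% at R-NSCP6 and 73.0% at NPC. The carriers of retinoids CRABP1 and CRABP2 had 1.21 and 2.63 FPKM in NPC, against 290.5 and 263 FPKM in R-NSCP1. Of the 4 lipid and retinoid carrier genes besides FABP7, 0 were prevalent in NPC as deposited, although FABP5 was so called with libraries scaled to 1 sum of FPKM. Likewise 0 were prevalent in NPC of the 5 genes listed with SLC1A3, 4 of its own transporter family and GLUL, the glutamine synthetase that converts the glutamate taken up by astrocytes. GLUL had 65.3 FPKM at the ESC stage, 116 at R-NSCP1, 90.9 at R-NSCP6 and 137 at NPC. SLC1A5, a carrier of neutral amino acids, had 2.23 FPKM in NPC, against 35.2 FPKM in ESC, where it was prevalent.

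S100B and AQP4 are markers of astrocytes more than of neuroepithelium. S100B encodes a small calcium-binding protein of astrocytes, also found in oligodendrocyte precursors and Schwann cells. S100B had 0.136 FPKM at the ESC stage, 0.424 at R-NSCP1, 0.650 at R-NSCP6 and 159 at NPC, which was 245-fold higher in NPC than in R-NSCP6. AQP4 encodes the main water channel of the brain. AQP4 had 1.48e-07 FPKM at the ESC stage, 0.0691 at R-NSCP1, 0.0228 at R-NSCP6 and 43.7 at NPC. It was the lowest of the 10 genes in NPC, ranking 1649, and its ratio to the second highest stage, 632, was the largest of the 10, though that ratio rests on a level under 0.1 FPKM. GFAP was 1.80 times as high as S100B at the ESC stage, 1.80 times at R-NSCP1, 3.16 times at R-NSCP6 and 3.03 times at NPC, where the ratios before NPC rest on S100B levels under 1 FPKM.

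Of the 8 other S100 genes with a row, 4 were prevalent in NPC. S100A10, whose product pairs with annexin A2 at the cell membrane, had 169 FPKM at the ESC stage, 34.9 at R-NSCP1, 131 at R-NSCP6 and 673 at NPC. It thus stood above S100B in each library. S100A4, S100A11 and S100A2 were prevalent at 8.02, 3.71 and 3.24 FPKM in NPC. The row of S100A11 may share reads with its near copy LOC717324, which had 159 FPKM in NPC and 7.21 in R-NSCP6. Of the 8 genes listed with AQP4 for the dystrophin complex and the potassium channel of endfeet, 4 were prevalent in NPC. KCNJ10, the inward rectifier Kir4.1 that lies beside AQP4 in endfeet, had 0.114 FPKM at the ESC stage, 0.448 at R-NSCP1, 0.621 at R-NSCP6 and 9.68 at NPC. DAG1, the dystroglycan that anchors the complex to laminin, had 31.0 FPKM at the ESC stage, 43.0 at R-NSCP1, 14.6 at R-NSCP6 and 103.9 at NPC. DTNA, which encodes the astrocyte form of dystrobrevin, had 31.9 FPKM in NPC and 5.44 in R-NSCP6, and SGCE, a sarcoglycan, had 69.4 FPKM in NPC and 24.6 in R-NSCP6.

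The matrix and adhesion genes showed 3 different courses before NPC. CD44 encodes the hyaluronan receptor, which marks astrocyte-restricted precursors in rodents and is also expressed by mesenchymal and blood cells. CD44 had 4.53 FPKM at the ESC stage, 1.08 at R-NSCP1, 1.81 at R-NSCP6 and 167 at NPC. It was the only one of the 10 genes called lower at a later stage, in R-NSCP1 against ESC. TNC encodes tenascin-C, a glycoprotein of the matrix around radial glia and in stem cell niches. TNC had 0.506 FPKM at the ESC stage, 1.10 at R-NSCP1, 7.25 at R-NSCP6 and 147 at NPC. Its 6.57-fold higher level in R-NSCP6, relative to R-NSCP1, was the largest of the 10 genes at that step. BCAN encodes brevican, a chondroitin sulfate proteoglycan made almost solely in the central nervous system. BCAN had 0.199 FPKM at the ESC stage, 0.0270 at R-NSCP1, 0.0445 at R-NSCP6 and 81.4 at NPC, with a ratio of 409 to its second highest stage, ESC.

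BCAN belongs to the lecticans, which bind hyaluronan, and within that family the libraries differed in which gene prevailed. VCAN, which encodes versican, gave 95.6% of the summed FPKM of BCAN, NCAN and VCAN at the ESC stage, 75.9% at R-NSCP1, 32.9% at R-NSCP6 and 1.28% at NPC. NCAN, neurocan, gave 3.71% at the ESC stage, 24.0% at R-NSCP1, 67.0% at R-NSCP6 and 17.6% at NPC. BCAN gave under 1% in the first 3 stages (0.729%, 0.0872% and 0.0926%) and 81.1% in NPC. The order of lecticans thus differed among the 3 stages after ESC. VCAN was first in R-NSCP1, as it was in ESC, NCAN in R-NSCP6 and BCAN in NPC. The sum itself was 27.3 FPKM at the ESC stage, 31.0 at R-NSCP1, 48.1 at R-NSCP6 and 100.4 at NPC. Of the 8 other genes of proteoglycans, hyaluronan and tenascins with a row, 2 were prevalent in NPC. PTPRZ1, a receptor phosphatase that binds tenascins and is carried by radial glia, had 56.0 FPKM at the ESC stage, 46.5 at R-NSCP1, 26.8 at R-NSCP6 and 499.8 at NPC. CSPG5, neuroglycan C, had 39.9 FPKM in NPC and 13.03 in R-NSCP6. HAS2, a synthase of hyaluronan, the ligand of CD44, had 91.1 FPKM at the ESC stage, 1.82 at R-NSCP1, 0.0186 at R-NSCP6 and 6.18 at NPC.

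The steps between neighbouring stages were compared on the scale of log2(FPKM + 1), on which low levels count little. At the first step, 4 of the 10 genes (FABP7, VIM, SLC1A3 and NES) stood higher in R-NSCP1 than in ESC, against 19.9% of 11348 symbols with at least 3 FPKM in either stage, and CD44 was lower, against 15% of them. Of the 10 genes, 5 had at least 3 FPKM in either of these stages. The log2 ratios of R-NSCP1 to ESC were 6.75 for FABP7, 3.17 for VIM, 2.55 for SLC1A3, 1.08 for NES and -1.41 for CD44. The median over the 10 genes was 0.49, beside 0.05 over all symbols. The first step was the largest of the 3 for FABP7 and VIM.

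At the second step, 3 of the 10 genes (TNC, NES and VIM) were higher in R-NSCP6 than one stage before, in R-NSCP1, and 0 were lower. Of 11438 symbols with at least 3 FPKM in either stage, 16.3% were higher and 14.4% lower. Such a level in either stage was reached by 5 of the 10 genes. With the libraries scaled to 1 sum of FPKM, only TNC was still called, since the log2 ratios were then 0.61 for NES and 0.52 for VIM. As deposited they were 1.97 for TNC, 1.29 for NES and 1.20 for VIM, and between -0.06 and 0.79 for the other 7 genes. The median over the 10 genes was 0.39, beside -0.00 over all symbols. With scaling to the sum the median of the 10 genes was 0.02, a scaling that moves every log2 ratio of this step by -0.69 before the pseudocount. GFAP was among those 7 with 0.79, from 2.06 FPKM in R-NSCP6 against 0.764 in R-NSCP1, both under 3 FPKM.

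At the third step, 9 of the 10 genes were higher in NPC than in R-NSCP6, against 16.4% of 11508 symbols, and 0 were lower, against 21.7%. The log2 ratios were 7.31 for GFAP, 6.60 for S100B, 6.30 for BCAN, 5.90 for CD44, 5.45 for AQP4, 4.17 for TNC and 3.62 for SLC1A3. They were smaller for FABP7, with 1.84, and for VIM, with 1.41. The median over the 10 genes was 4.81, beside -0.17 over all symbols. This step was the largest of the 3 for 7 genes, a count that was not made over all symbols. GFAP, S100B, AQP4 and BCAN, which have a row only through NPC, are among the 7. The step contributed 84.9% of the whole log2 difference between NPC and ESC for GFAP, 92.5% for S100B and 62.9% for TNC. It contributed 20.6% for FABP7 and 24.3% for VIM. Directly, 10 of 10 genes were higher in NPC than in ESC, against 24% of symbols higher and 25.8% lower, and 10 of 10 were higher in NPC than in R-NSCP1, against 12.5% higher and 15.6% lower. These comparisons share the NPC library and are not independent of one another.

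**Figure D3:**
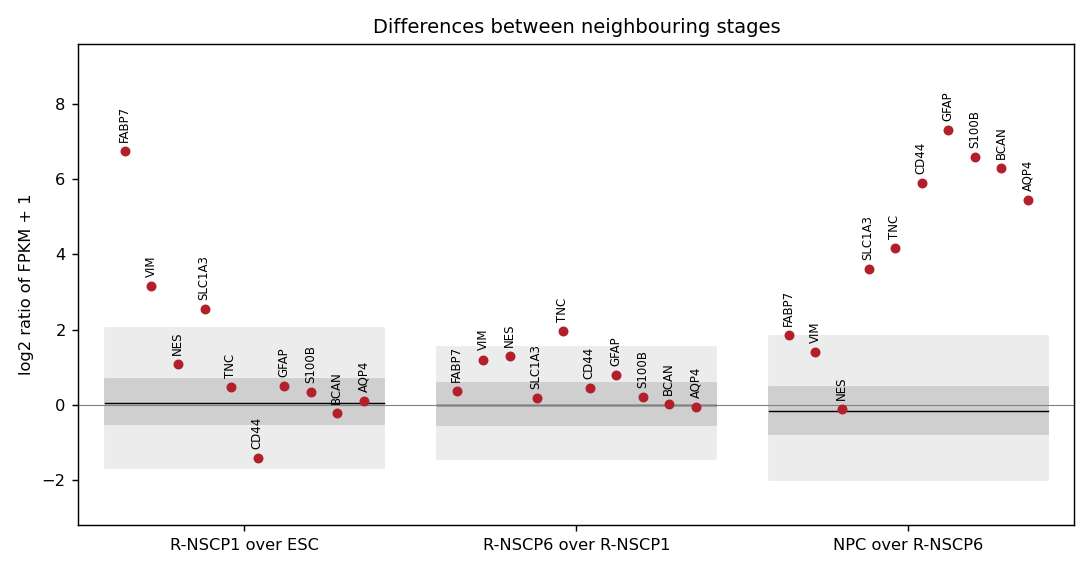
Log2 ratio of FPKM + 1 of each of the 10 genes (points, named) for R-NSCP1 over ESC, R-NSCP6 over R-NSCP1 and NPC over R-NSCP6, 1 library per stage. The light and dark bands hold the middle 90% and 50% of all 12460 symbols and the line is their median. FABP7, VIM and SLC1A3 lie above the light band at the first step, TNC at the second and 8 genes at the third, where FABP7 lies just past its edge, VIM lies within it and NES lies near 0, turning sign with the scaling.

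The genes also differed in how much of their NPC levels R-NSCP6 held. For the 6 genes that were under 3 FPKM in R-NSCP1, it held between 0.0522% and 4.93%. For FABP7, SLC1A3, VIM and NES, it held between 7.85% and 109%. The 6 were grouped by their low level in R-NSCP1, so lower shares in R-NSCP6 are partly built into the grouping. At its border, TNC was at 4.93% and SLC1A3 at 7.85%. Among the 816 symbols prevalent in NPC, ordered by the ratio of NPC to the second highest stage, AQP4 ranked 19, BCAN 21, S100B 24, GFAP 26, CD44 56, TNC 87 and SLC1A3 116. FABP7 ranked 383 and VIM 536 in that order. By level in NPC the order was another one, VIM (12), FABP7 (18), NES (90), GFAP (123), SLC1A3 (174), CD44 (366), S100B (392), TNC (420), BCAN (838) and AQP4 (1649), each rank among 12460 symbols. GFAP thus stood above SLC1A3 in NPC, although in R-NSCP1 GFAP had 0.764 FPKM and SLC1A3 had 23.0 FPKM.

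**Figure D4:**
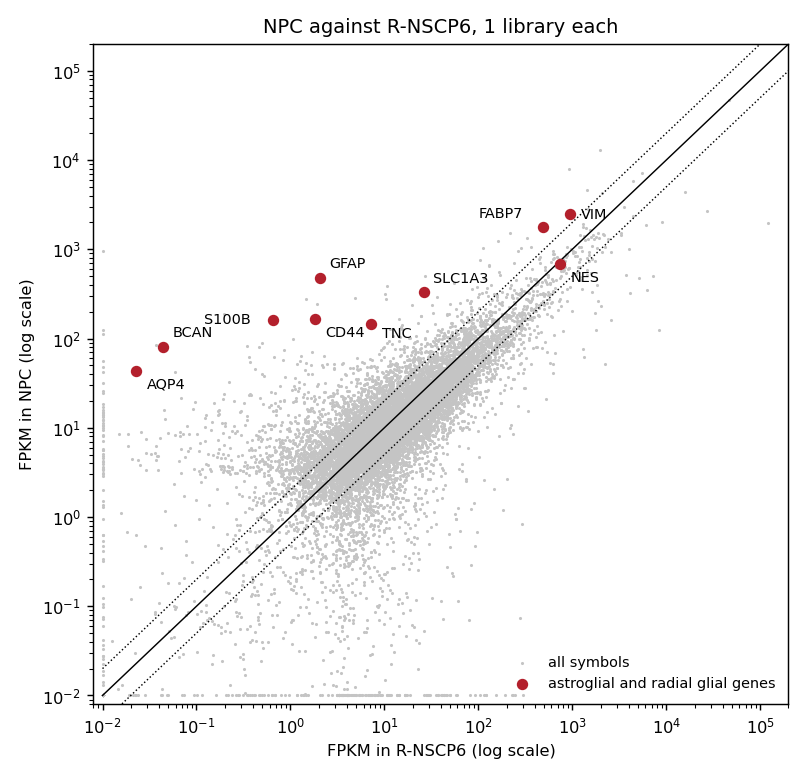
FPKM in NPC (vertical, log scale) against FPKM in R-NSCP6 (horizontal, log scale) for all 12460 symbols (grey) and the 10 genes (red), 1 library each, with values under 0.01 drawn at 0.01. The solid line marks equal levels and the dotted lines a 2-fold difference. Of the 10 genes, 9 lie above the upper dotted line and NES lies by the line of equal levels, on a side that depends on the scaling.

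The course of each gene over the 4 stages was compared with that of 5842 symbols of at least 20 FPKM in some stage, by the distance between log2(FPKM + 1) profiles after taking off each profile's mean (0 means the same shape). Over only 4 libraries, likeness is a description. Because 1 FPKM was added, differences between levels far under 1 FPKM count little. For genes that low before NPC, the distance rests mainly on their levels in NPC. For GFAP the nearest was S100B, at 1.14, followed by an unnamed locus, LOC100427622, at 1.27 and ANXA1, annexin A1, at 1.53. S100B was nearer to other genes than to GFAP, with LOC100427622 at 0.40, LOC719253 (IFI16) at 0.67 and ANXA1 at 0.75. ANXA1 had 0.749 FPKM at the ESC stage, 3.04 at R-NSCP1, 1.46 at R-NSCP6 and 274 at NPC. For BCAN and for CD44 the nearest was HTRA1, a secreted protease, at 0.28 and 0.82, with 2.77 FPKM at the ESC stage, 1.501 at R-NSCP1, 1.90 at R-NSCP6 and 246 at NPC. Beside HTRA1, BCAN had LOC100426088 at 0.38 and LOC719253 at 0.52, and CD44 had BCAN at 0.97 and LOC100426737 at 0.99. AQP4 was nearest to LOC100429558 at 0.16, LOC710133 (CLRN1) at 0.18 and LOC100426088 at 0.36. LOC100427622, LOC100429558 and LOC100426088 are listed at 0 in the 3 stages before NPC. Such zeros can be failed estimates, so the likeness to these loci is uncertain.

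The genes that started earlier had other neighbours. SLC1A3 was nearest to ITGB8, an integrin subunit, at 0.53, to LOC706499 (SCG2) at 0.64 and to LOC720563 (CD99) at 0.66. ITGB8 had 0.374 FPKM at the ESC stage, 7.58 at R-NSCP1, 9.89 at R-NSCP6 and 80.5 at NPC. VIM was nearest to DKK3, a secreted protein of the Dickkopf family, at 0.50, and near to HOPX, a marker of outer radial glia in primates, at 0.63. NES had the closest neighbours, LOC100427039 (CEND1) at 0.04, ARVCF at 0.13 and LOC714388 (PLPPR2) at 0.14, while FABP7 had none closer than 1.82 (LOC100429049), followed by GPM6A, a neural membrane glycoprotein, at 1.89 and LOC100430558 at 1.90. TNC was nearest to NXPH1, a neurexophilin, at 1.04, then to LOC703647 at 1.18 and LOC715409 (MLC1) at 1.24. Of these neighbours, LOC100429049, LOC100430558 and NXPH1 are listed at 0 in ESC, which can be a failed estimate. Among the 10 genes themselves, the closest pairs were AQP4 with BCAN at 0.74, S100B with BCAN at 0.76, CD44 with BCAN at 0.97, AQP4 with CD44 at 1.12 and GFAP with S100B at 1.14.

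Other genes of the same cell types gave a mixed picture. Of 23 further astrocyte genes with a row, 12 were prevalent in NPC, a share of 52.2% beside the 6.55% of all symbols. The list held 28 genes and was chosen with earlier results of these data known. Several of the 12, SPARCL1 among them, reached 3 FPKM in NPC alone and so have a row through that library only. SPARC and SPARCL1, secreted matricellular proteins of astrocytes, had 1244 and 186 FPKM in NPC, against 161 and 0.194 in R-NSCP6. CLU, clusterin, had 482 FPKM in NPC and 119 in R-NSCP6, and MLC1, a membrane protein of astrocyte endfeet read from LOC715409, had 318 FPKM in NPC and 10.1 in R-NSCP6. ATP1B2, a subunit of the glial sodium pump read from LOC716093, had 75.6 FPKM in NPC and 13.1 in R-NSCP6, and EDNRB, the endothelin B receptor, had 53.7 FPKM in NPC and 1.47 in R-NSCP6. Some astrocyte genes did not share this course. Of the 23, 14 were higher and 3 lower in NPC than in R-NSCP6. Lower were ALDOC, with 8.53 FPKM in NPC and 26.2 in R-NSCP6, NDRG2, with 3.48 and 16.8, and ALDH1A1, with 0.0709 and 4.19. APOE and GJA1 were highest in ESC. APOE, the lipid carrier of astrocytes, was prevalent in ESC, with 354 FPKM at the ESC stage, 70.2 at R-NSCP1, 30.0 at R-NSCP6 and 24.7 at NPC. GJA1, the gap junction protein connexin 43, had 610 FPKM at the ESC stage, 399.6 at R-NSCP1, 115 at R-NSCP6 and 476 at NPC.

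Of 22 further radial glial genes with a row, 7 were prevalent in NPC, beside the 6.55% of all symbols. With SLC1A3 counted the list had 23, of which 9 were higher and 6 lower in NPC than in R-NSCP6. Among all symbols with at least 3 FPKM in either stage, 16.4% were higher and 21.7% lower. PTN, the growth factor pleiotrophin read from LOC709496, had 16.7 FPKM at the ESC stage, 315 at R-NSCP1, 218 at R-NSCP6 and 1525 at NPC. DBI, an acyl-CoA-binding protein, had 295 FPKM in NPC and 36.1 in R-NSCP6. HOPX had 88.7 FPKM in NPC and 20.7 in R-NSCP6, and SOX9, a transcription factor needed for gliogenesis in mice, had 53.6 FPKM in NPC and 13.3 in R-NSCP6. PON2, a paraoxonase read from LOC699107, had 195 FPKM in NPC and 33.3 in R-NSCP6. PAX6 and TTYH1, a membrane channel protein of neural stem cells, were among the 15 that were not prevalent in NPC. TTYH1 had 3.03 FPKM at the ESC stage, 82.3 at R-NSCP1, 302 at R-NSCP6 and 161 at NPC.

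Genes of the signals and factors known to turn on GFAP and S100B in rodents were listed as well. Cytokines of the LIF and CNTF kind act there through gp130, JAK kinases and STAT3, with transcription factors of the NFI family beside them. Of the 22 with a row, 10 were prevalent in NPC. STAT3 had 16.5 FPKM at the ESC stage, 9.26 at R-NSCP1, 11.2 at R-NSCP6 and 35.9 at NPC, and its feedback inhibitor SOCS3, read from LOC715680, had 18.9 FPKM in NPC and 6.58 in R-NSCP6. NFIX had 0.320 FPKM at the ESC stage, 0.493 at R-NSCP1, 8.20 at R-NSCP6 and 32.2 at NPC, and NFIB had 17.5 FPKM in NPC and 5.24 in R-NSCP6. SOX8, a relative of SOX9 read from LOC722402, had 13.9 FPKM in NPC and 0.951 in R-NSCP6. NFIA, of the same family as NFIX and NFIB, had 5.59 FPKM in NPC and 9.69 in R-NSCP6. Of the ID genes, inhibitors of basic helix-loop-helix factors, ID4 had 150.0 FPKM in NPC and 113 in R-NSCP6, and ID1, read from LOC713160, had 4.71 FPKM in NPC and 100.5 in R-NSCP6. Of 6 genes of the EGF and FGF receptor families, 1 was prevalent in NPC: EGFR, the receptor of the EGF added to NPC cultures, had 0.424 FPKM at the ESC stage, 1.23 at R-NSCP1, 0.0675 at R-NSCP6 and 7.99 at NPC. FGFR1 had 87.8 FPKM in NPC and 35.8 in R-NSCP6.

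Markers of other cell types stood beside these values. Of 6 markers of the oligodendrocyte lineage with a row, 4 were prevalent in NPC, with OLIG1 and OLIG2 listed at 0 in ESC, and the list summed to 77.1 FPKM at the ESC stage, 79.3 at R-NSCP1, 47.0 at R-NSCP6 and 286 at NPC. OLIG2, a transcription factor of that lineage also expressed by some glial progenitors, had 0 FPKM at the ESC stage, 0.655 at R-NSCP1, 0.0959 at R-NSCP6 and 19.7 at NPC. Of 13 neuronal markers, 2 were prevalent in NPC and 6 in R-NSCP6, and their sum was 45.0 FPKM at the ESC stage, 218 at R-NSCP1, 619 at R-NSCP6 and 629.6 at NPC. Of these 13, 3 were higher and 7 lower in NPC than in R-NSCP6. TBR1, a transcription factor of cortical projection neurons, had 0.0710 FPKM in NPC and 41.9 in R-NSCP6, and GAP43, a protein of growing axons with the highest level of the list, had 317 FPKM in NPC and 203 in R-NSCP6. MAP2, a microtubule protein of dendrites, had 83.6 FPKM in NPC and 34.9 in R-NSCP6. GAD1, an enzyme of GABA synthesis, had 16.4 FPKM in NPC and 0.0919 in R-NSCP6. Of 13 fibroblast and mesenchyme markers, which bear on VIM, CD44 and TNC since such cells express these genes too, 2 were prevalent in NPC (POSTN with 5.68 FPKM and TWIST1 with 5.18). Their sum was 74.6 FPKM at the ESC stage, 103.6 at R-NSCP1, 86.7 at R-NSCP6 and 108.6 at NPC, and none of the 13 was listed at 0 in any stage. Of the 13, 6 were higher and 3 lower in NPC than in ESC. COL6A1, a collagen VI chain read from LOC721855 and the highest of the list in NPC, had 45.3 FPKM in NPC and 2.39 in ESC, while COL1A1, the collagen I chain of fibroblasts, had 0.787 FPKM in NPC and 11.7 in ESC. The part of other cell types in the levels of the 10 genes was not tested.

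Over all 16 lists besides the 10 genes, 160 different genes had a row and 47 of them were prevalent in NPC. Pluripotency markers had 0 of 10 prevalent in NPC and 10 of 10 in ESC, with sums of 10.4 FPKM in NPC and 2503 in ESC. Microglia and endothelium markers had 0 of 2, and ependyma and choroid plexus markers 0 of 5. Since the table kept genes by their highest level, listed genes without a row are not in these shares. Listed genes with at least 3 FPKM in NPC alone are in them through that library only.

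**Figure D5:**
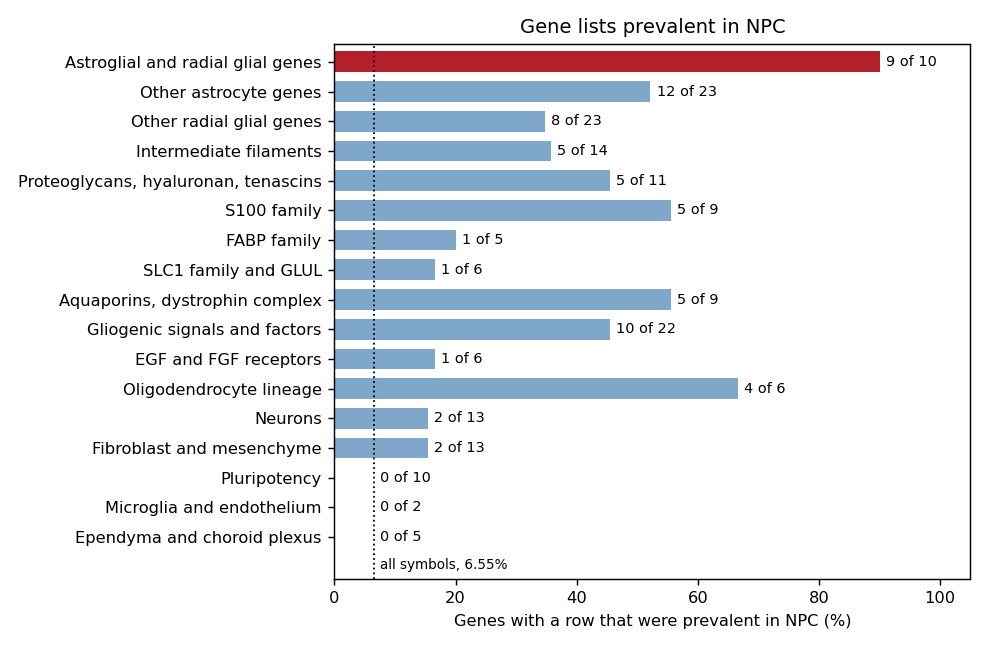
Percentage of the genes with a row in each list that were prevalent in NPC, for the 10 astroglial and radial glial genes (red) and 16 other lists (blue), with the counts beside the bars and the share of all 12460 symbols (6.55%) as a dotted line. Lists of filaments, proteoglycans, S100 and FABP genes, SLC1 genes, aquaporins and radial glial genes hold members of the red list. The red bar is at 9 of 10, and the next lists are oligodendrocyte lineage markers with 4 of 6 and the S100 and aquaporin lists with 5 of 9 each.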

How the data were processed

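mRNA from ESC, R-NSCP1, R-NSCP6 and NPC, 1 pooled library each, had been sequenced as read pairs after poly-A selection. TopHat was used by the authors to align reads to the rhesus assembly MMUL_1.0, and the FPKM of each UCSC known gene was estimated by them with Cufflinks 2.0.2. The submitters' processing notes name TopHat2 2.0.5 and Bowtie 0.12.8.0. The deposited FPKM values were used as they stood. Fragment counts behind them were not analysed here. Low values above 0 shared by 2 libraries were too few to recover the depth (14 rows under 0.06 FPKM in both NPC and R-NSCP6). Whether the libraries had been scaled to one another before deposit was not given in the sources used, and such scaling moves each ratio of 2 stages.

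The 10 genes were found by symbol. For 128 symbols with several rows, KRT8, KRT18 and S100A11 among them, the row of highest mean FPKM was taken. The rows of each such symbol had 1 value in each of the 3 stages after ESC, so they can differ in ESC alone. The filament shares in ESC depend on this choice of row. Of 254 listed genes 170 had a row, 28 of them through a LOC symbol or an older name. LOC symbols were named from RefSeq genes of the assembly T2T-MMU8v2.0, of which no coordinates were used, since the files follow another assembly. A gene was prevalent with at least 3 FPKM and at least 2 times the second highest stage. Log2 ratios used a pseudocount of 1 FPKM. Such ratios understate differences of low genes. No test was made, as each stage had 1 library. The members and lists were chosen with earlier results of these data known. Genes named beside the 10 were, in each list, at most 6 prevalent in NPC with the highest NPC level and at most 3 others with the highest level, and the 3 nearest profiles of each gene. Some genes that this rule takes are not reported here. COL1A1, PAX6, VCAN, KRT18, RSPH1, NFIA, ALDOC, NDRG2, ALDH1A1, ATP5O and LOC717324 stand outside this rule and were named after their values were seen.

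Alternatives were 4 scalings between libraries (sum of FPKM, that sum without the 10 highest rows, upper quartile, median of ratios), a fold of 4, minimums of 1 and 10 FPKM or none, pseudocounts of 0.1 and 3 FPKM, the first row of a symbol, and filament shares without lamins or keratins. The code was tested on simulated data. Python 3.11.15, numpy 2.4.6, pandas 2.3.3 and matplotlib 3.10.9 were used. The microRNA libraries of the study were not used here.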

Additional observations from a re-analysis of the deposited data

How the results depend on the processing

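No paired analysis was possible because each stage had 1 library. The 9 genes prevalent in NPC numbered 9 under each of the 4 scalings and each minimum level, and 7 with a fold of 4, without VIM and FABP7. Of 61 alternative values of the main counts, medians and shares, 54 stayed near the deposited value and 7 did not. Near means within 1.5-fold, which for a log2 ratio is a shift of at most log2 of 1.5 with the sign kept. By this rule the median for R-NSCP6 over R-NSCP1 counts as near. It was 0.02 with scaling to the sum and 0.18 with the 10 highest rows left out, in place of 0.39. Genes called higher in R-NSCP6 over R-NSCP1 were 1 in place of 3 when libraries were scaled to their FPKM sum, when the 10 highest rows were left out of that sum, and with a fold of 4. The genes higher in R-NSCP1 than in ESC were 8 in place of 4 with no minimum level. Listed genes prevalent in NPC were 28 in place of 47 with a fold of 4. The median log2 ratio of the 10 genes was 1.12 for R-NSCP1 over ESC with a pseudocount of 0.1 FPKM, in place of 0.49, and 3.91 for NPC over R-NSCP6 with a pseudocount of 3 FPKM, in place of 4.81. Of 180 log2 ratios of single genes under alternatives, 8 had another sign: NES for NPC over R-NSCP6 under all 4 scalings, and, for R-NSCP6 over R-NSCP1, S100B (-0.03), FABP7 (-0.33) and SLC1A3 (-0.47) with scaling to the sum and SLC1A3 (-0.13) with the 10 highest rows left out of it. Scaling to the sum moved every log2 ratio by 1.05 for R-NSCP1 over ESC, -0.69 for R-NSCP6 over R-NSCP1 and 0.62 for NPC over R-NSCP6, before the pseudocount. The spread between cultures and the counting error of each FPKM were not measured, which limits most the levels under 1 FPKM of AQP4, BCAN, S100B and GFAP before NPC.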

Other observations

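Markers of ependyma, which descends from radial glia, and of choroid plexus were listed as well. Of 5 with a row, 0 were prevalent in NPC and 2 were in R-NSCP1. TTR, the transthyretin secreted by choroid plexus, had 463 FPKM at R-NSCP1 and 154 at R-NSCP6 and is listed at 0 in ESC and NPC. FOXJ1, the transcription factor of motile cilia, had 0.0657 FPKM at the ESC stage, 12.8 at R-NSCP1, 34.9 at R-NSCP6 and 22.6 at NPC. RSPH1, a protein of the ciliary axoneme read from LOC714394, had 0 FPKM at the ESC stage, 8.49 at R-NSCP1, 24.1 at R-NSCP6 and 20.1 at NPC. A value of 0 may be a failed estimate and is not read as absence of TTR.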
